A study of Mus musculus with 6 samples.

Results

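The mRNAs of 10 alpha and beta tubulin genes were followed in mouse neural progenitor cells (NPCs) with and without the RNA- and chromatin-binding protein Ybx1. The members were taken by name from the 51733 gene symbols of the count tables, by no cutoff on a measured value, though earlier results of these data were known. They are 4 alpha genes (Tuba1a, Tuba1b, Tuba1c and Tuba4a) and 6 beta genes (Tubb2a, Tubb2b, Tubb3, Tubb4b, Tubb5 and Tubb6). All 10 were found in the tables, and all 10 passed the filter on low values. By their known use, 4 were grouped as neuronal isotypes (Tuba1a, Tubb2a, Tubb2b and Tubb3) and 5 as isotypes of dividing cells or of most cells (Tuba1b, Tuba1c, Tubb4b, Tubb5 and Tubb6). Tuba4a, which is best known from mature tissues, was kept apart.

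The study asked how loss of Ybx1 changes gene expression in the embryonic brain. Total RNA was sequenced in 3 control libraries, labelled wildtype, and 3 Ybx1-KO libraries, labelled YBX1KO, all given as strain C57BL/6 and taken from neural tubes at stage E13.5. The knockout embryos carried the Ybx1tm1Ley null allele on both chromosomes, a deletion present in every tissue and not in NPCs alone. Cells of both genotypes were sorted as Sox2-positive, by a Sox2-eGFP knock-in allele (B6;129S1-Sox2tm1Hoch/J) that marks cells in which the Sox2 locus is active (the labels name NeuroFluor CDr3 as the other choice of stain), and embryos of both sexes were used. The control embryos were siblings by the study's account, and nothing states that each library is 1 embryo, so p-values measure the spread between these libraries.

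Microtubules are built from dimers of alpha and beta tubulin, and mammals carry several genes for each. The proteins are nearly the same in their core and differ mostly in a short acidic tail at the carboxyl end, which motor proteins and tubulin-modifying enzymes read. In the developing brain, Tuba1a, Tubb2b and Tubb3 are switched on strongly as progenitors become neurons, and mutations in them disturb cortical layering. Tuba1b, Tubb4b and Tubb5 also serve the mitotic spindle.

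The tails of 7 isotypes are shown because motor proteins and modifying enzymes act there. Each line gives the last 60 coding bases, 5′ to 3′ on the coding strand, from the principal transcript of GENCODE M21 (GRCm38). In the alpha genes the capitals mark the last codon before the stop codon, and in the beta genes they mark the stop codon.
Tuba1c: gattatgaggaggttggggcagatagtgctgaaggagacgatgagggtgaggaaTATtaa
Tuba4a: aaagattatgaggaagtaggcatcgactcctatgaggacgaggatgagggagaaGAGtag
Tubb2a: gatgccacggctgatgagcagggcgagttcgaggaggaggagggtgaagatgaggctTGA
Tubb2b: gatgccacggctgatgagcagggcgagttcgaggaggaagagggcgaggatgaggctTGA
Tubb3: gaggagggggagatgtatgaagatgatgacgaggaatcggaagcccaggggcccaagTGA
Tubb4b: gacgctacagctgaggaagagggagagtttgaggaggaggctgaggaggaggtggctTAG
Tubb5: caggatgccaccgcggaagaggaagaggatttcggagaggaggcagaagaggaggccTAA

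Tuba1c ends in a tyrosine codon (TAT), the residue that the vasohibins remove and tubulin tyrosine ligase puts back, whereas Tuba4a ends in GAG and is made without it. The tails of Tubb2a and Tubb2b differed at 3 of 60 bases, G39A, T45C and A48G, with Tubb2a's base first and positions counted from the first base shown. The tails of Tubb2b and Tubb3 differed at 34 of 60 bases. Over the whole coding sequence, Tuba1a and Tuba1b were 98.3% identical and Tubb2a and Tubb2b 96.5%, against 83.4% for Tubb2b and Tubb3. The neuronal and the dividing-cell alpha isotype are thus almost the same message within the coding part. A read pair can be given to 1 of them only where it covers a base that differs, in the coding part or in the untranslated ends.

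Tuba1a lies at chr15:98949837-98953703, Tuba1b at chr15:98931425-98934565 and Tuba1c at chr15:99029891-99038110, with Tuba1a and Tuba1b on the minus strand and Tuba1c on the plus strand. Tubb2a (chr13:34074274-34078007) and Tubb2b (chr13:34126748-34130466) are neighbours on the minus strand. Tubb3 is at chr8:123411424-123422015, Tubb4b at chr2:25222160-25224702, Tubb5 at chr17:35833921-35838306, Tubb6 at chr18:67390717-67402749 and Tuba4a at chr1:75214228-75219865, all in GRCm38. Of the 100-base windows along each principal transcript, 50% in Tuba1a, 69.1% in Tuba1b and 53.4% in Tuba1c also occur in a transcript of another annotated gene, pseudogenes included. The share was 36.9% in Tubb2a, 27.7% in Tubb2b and 29.2% in Tubb4b, and 0% in Tubb3, Tubb5, Tubb6 and Tuba4a. Read pairs that align to more than 1 place were not counted by the authors' counter, so the first 6 genes can be undercounted.

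Ybx1 itself had 235, 523 and 301 CPM in control and 124, 54.5 and 9.51 CPM in Ybx1-KO NPCs (CPM, read pairs on a gene scaled to library size with TMM factors), so the groups did not overlap. Its message was lower in the Ybx1-KO libraries but still detected, most in Ybx1-KO 1, the library that was also the highest at 7 of the 10 tubulin genes. Sox2, the marker used for the sort, was detected in all 6 libraries at 17.2 to 49.8 CPM. Neuronal messages were present too: a list of 15 neuron markers without tubulins summed to 1998 to 6125 CPM. Libraries held 20841990 to 23883542 counts on genes in control and 4743279 to 13321952 in Ybx1-KO. Library Ybx1-KO 3 stood apart: 7.22% of its tallied read pairs fell on genes, against 18.01 to 24.7% elsewhere, and its 1729 receptor genes of smell and taste, normally silent here, averaged 2.63 CPM, against at most 0.0555 elsewhere. These receptor averages were scaled to the total on genes without TMM factors, unlike the other CPM values here. The near-silent tubulin genes Tuba8 and Tubal3, chosen after their values were seen, stood at 3.36 and 3.22 CPM in Ybx1-KO 3 and at no more than 0.425 CPM elsewhere. The counts of tubulin genes are therefore also given without it. In bulk RNA, fewer cells of a type and less of a message per cell cannot be told apart.

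Tuba1a was by far the most abundant isotype in both genotypes. Levels were compared between genes as CPM per kilobase of exon. In control NPCs the means were 2974 ± 909 for Tuba1a, 455 ± 34.5 for Tubb5, 353 ± 176 for Tubb2b, 345 ± 105 for Tubb3, 206 ± 59.95 for Tuba1b, 177 ± 40.5 for Tubb2a and 166 ± 35.2 for Tuba1c (SD, n = 3). Tubb4b followed at 37.7 ± 7.16, Tubb6 at 5.43 ± 0.868 and Tuba4a at 2.93 ± 0.931 CPM per kilobase. From Tubb5 down to Tuba1c, the range of each gene over the control libraries overlapped that of the next in the order. Within each control library, however, Tubb3 was above Tuba1b, Tuba1b above Tubb2a and Tubb2a above Tuba1c. The order of Tubb2b against Tubb5 and against Tubb3 differed between these libraries. Tuba1a, Tubb4b, Tubb6 and Tuba4a each stood clear of the gene next in the order. In Ybx1-KO NPCs the order began with Tuba1a (4260 ± 2745), Tubb2b (806 ± 713) and Tuba1b (525 ± 366 CPM per kilobase), and the last 3 places were the same. Tuba1b moved from the fifth place to the third, though its range over the Ybx1-KO libraries overlapped those of Tubb2b and Tubb5, the genes next to it. Within each Ybx1-KO library Tubb2b was above Tuba1b, whereas Tuba1b was below Tubb5 in Ybx1-KO 2 (326 against 525 CPM per kilobase).

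**Figure D1:**
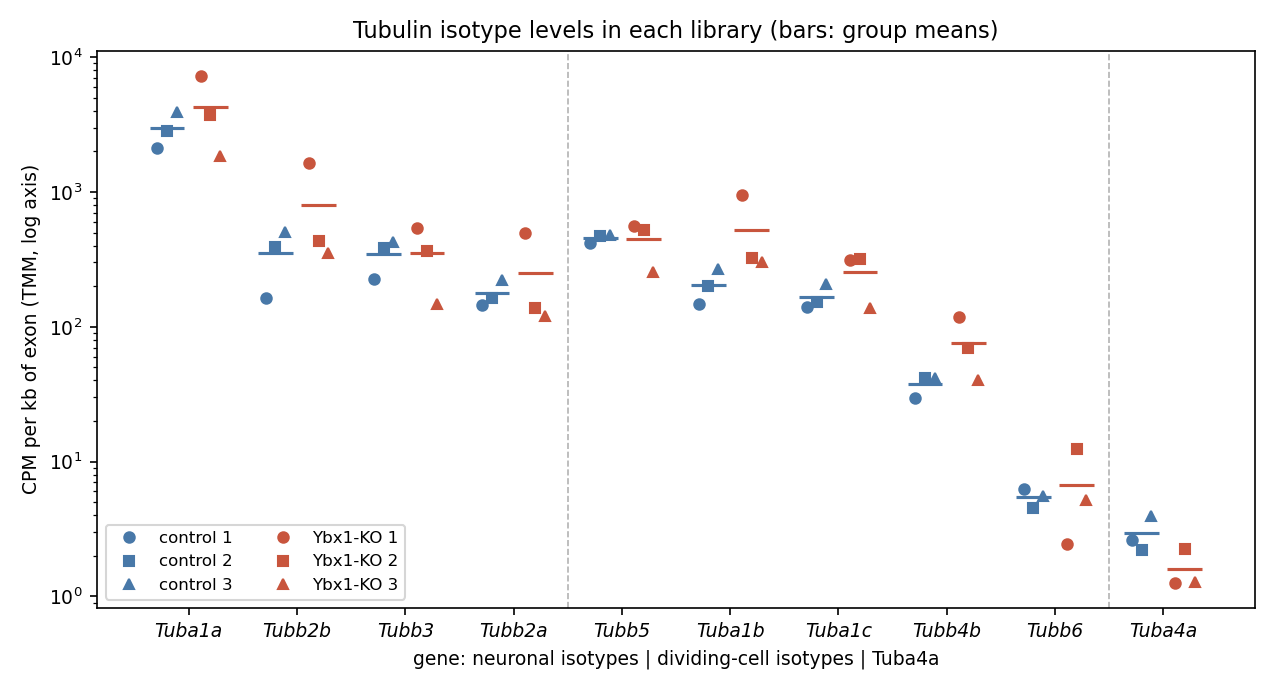
CPM per kilobase of exon (TMM-scaled, logarithmic axis) of the 10 tubulin genes in each of 3 control (blue) and 3 Ybx1-KO (red) libraries, with short bars at the group means and dashed lines between the neuronal isotypes, the dividing-cell isotypes and Tuba4a. Ybx1-KO 1 is the highest of the 6 libraries at 7 of the 10 genes and Ybx1-KO 3 the lowest at 5.

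No tubulin gene passed an adjusted p of 0.05 in the comparison of Ybx1-KO with control NPCs. Of the 21326 genes tested with edgeR's quasi-likelihood test, 0 (0%) had an adjusted p below 0.05 with a fold change above 1.5, and limma-voom called 0 as well, whereas DESeq2 called 118 higher and 96 lower, none of them a tubulin gene of the 10. At an unadjusted p below 0.05, 2 of the 10 tubulin genes were higher in Ybx1-KO NPCs, Tuba1b and Tubb4b, beside 6.96% of all genes tested, and 0 were lower, beside 4.26%. That count was 0 without control 1, without control 2 or without Ybx1-KO 1, and also 0 with no filter on low values, and it was 1 without control 3 (Tuba1b). Without Ybx1-KO 3 it was 4, with log2 fold changes of 1.58 for Tubb2b, 1.66 for Tuba1b, 0.94 for Tuba1c and 1.33 for Tubb4b. The Ybx1-KO libraries lay wholly above the control libraries at 1 of the 10 genes, Tuba1b, beside 4.99% of all genes, and wholly below at 0, beside 8.16%. The median log2 fold change was 0.51 over the 4 neuronal isotypes and 0.63 over the 5 dividing-cell isotypes, beside 0.31 over all genes tested. Scaling by total count in place of TMM moved that last value to 0.51, and RLE scaling, from median ratios between libraries, moved it to 0.40.

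The neuronal isotypes did not separate the genotypes. Tuba1a, the main alpha tubulin of young neurons, stood at 3840.4, 5148 and 7098 CPM in control and at 13059, 6665 and 3319.7 CPM in Ybx1-KO. Both the highest and the lowest of its 6 values were in Ybx1-KO libraries, so the control values lay inside the Ybx1-KO range. Scaled by total count the lowest was control 1, at 3901.9 CPM against 13791, 4895 and 5002 CPM in Ybx1-KO, and the groups still overlapped. Its log2 fold change was 0.52 with a standard error of 0.754 (edgeR's quasi-likelihood test, Benjamini-Hochberg adjusted p = 0.754).

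Tubb2b, a beta tubulin needed for neuronal migration, had the highest log2 fold change of the neuronal group. Its CPM was 372, 890 and 1166 in control libraries and 3734, 998 and 816 in Ybx1-KO libraries. Ybx1-KO 1 lay far above the highest control, while the remaining pair lay among the controls. Scaled by total count Ybx1-KO 3 (1229 CPM) was also above every control. The log2 fold change was 1.19 (SE 0.676, unadjusted p = 0.0961, adjusted p = 0.458 by edgeR's quasi-likelihood test), and with Ybx1-KO 1 left out it was 0.094.

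Tubb2a, its near twin, is expressed in neurons and in other tissues. It had 232, 265 and 358 CPM in control and 795, 223 and 193 CPM in Ybx1-KO libraries. As for Tubb2b, Ybx1-KO 1 alone exceeded the controls, and here the remaining pair lay below all of them. The log2 fold change of 0.50 (SE 0.548, adjusted p = 0.672 by edgeR) became -0.53 without Ybx1-KO 1.

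Tubb3, the class III beta tubulin that the Tuj1 antibody detects and that is used as a marker of young neurons, had 422, 714 and 795 CPM in control and 1009, 684 and 274 CPM in Ybx1-KO libraries. The control range again lay within the Ybx1-KO range. The means were 644 ± 196 and 656 ± 368 CPM (SD, n = 3), and the log2 fold change was 0.026 (SE 0.547, adjusted p = 0.987 by edgeR).

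Among the isotypes of dividing cells, Tuba1b differed most. This alpha tubulin is expressed in nearly every cell type and is high in dividing cells. It stood at 278, 376 and 503 CPM in control libraries and at 1776, 611 and 568 CPM in Ybx1-KO libraries. Every Ybx1-KO library was above every control library, although Ybx1-KO 2 and 3 exceeded the highest control by little. The log2 fold change was 1.35 (SE 0.563, unadjusted p = 0.0284, adjusted p = 0.444 by edgeR's quasi-likelihood test). In an exact, 2-sided permutation test of CPM the p was 0.1, the smallest that 3 against 3 libraries allow. Without Ybx1-KO 1 the log2 fold change was 0.54, and over 12 alternatives the adjusted p ran from 0.0853 to 0.783. Scaled by total count, Ybx1-KO 2 (449 CPM) was below control 3 (466 CPM) and the groups overlapped.

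Tubb4b, a beta tubulin of cilia, spindles and most other microtubules, was the second. Its CPM was 61.4, 86.9 and 87.7 in control libraries and 246, 145 and 83.9 in Ybx1-KO libraries. Only Ybx1-KO 3 lay among the controls, and by RLE or total count scaling it too was above them. The log2 fold change was 1.01 (SE 0.444, unadjusted p = 0.0368, adjusted p = 0.444 by edgeR). Tubb4b shares 121 exon bases with Fam166a on the opposite strand, whose own counts also separated the groups (18.1, 22.3 and 27.4 CPM in control, 175.1, 36.4 and 51.5 CPM in Ybx1-KO). The kit marked strand, but the strand setting of the counting is not given in the sources used here, so read pairs in that overlap cannot be told apart.

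Tuba1c, an alpha tubulin of proliferating cells, had 321, 347 and 472 CPM in control and 721, 725 and 314 CPM in Ybx1-KO libraries. The first 2 Ybx1-KO libraries were above all controls and the third was below them. The log2 fold change was 0.63 (SE 0.491, adjusted p = 0.545 by edgeR). Scaled by total count, all 3 Ybx1-KO libraries lay above the controls (474 to 762 against 315 to 437 CPM).

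Tubb5, the broadly expressed beta tubulin of progenitors, was the steadiest of the 10 among control libraries. It stood at 1383, 1562 and 1597 CPM there and at 1873.5, 1745.5 and 855 CPM in Ybx1-KO libraries. The control libraries differed by 1.155-fold from lowest to highest and the Ybx1-KO libraries by 2.19-fold, on both sides of the control range. The log2 fold change was -0.022 (SE 0.556, adjusted p = 0.990 by edgeR), and its sign was positive under RLE scaling (0.042), total count scaling (0.079) and a filter that asked 3 libraries for a CPM over 1 (0.061).

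The last 2 genes were rare in these cells. Tubb6, a beta tubulin of non-neural tissues such as muscle and endothelium, had 238 to 321 counts in control and 53 to 295 counts in Ybx1-KO libraries, or 15.2, 11.0 and 13.6 CPM against 5.92, 30.2 and 12.6 CPM. Its Ybx1-KO libraries spanned 5.10-fold, the widest of the 10 genes, and the log2 fold change was 0.30 (SE 0.526, adjusted p = 0.800 by edgeR).

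Tuba4a, the alpha tubulin without a tyrosine codon, had 9.68, 8.11 and 14.7 CPM in control and 4.69, 8.38 and 4.76 CPM in Ybx1-KO libraries, on 34 to 294 counts. Its log2 fold change was the lowest of the 10, at -0.86 (SE 0.547, unadjusted p = 0.134, adjusted p = 0.486 by edgeR), and it kept that direction in all 12 alternatives, from -1.27 to -0.58. By total count scaling its groups did not overlap. Over 1379 bases its exons lie opposite those of Stk16, a kinase gene that had 33.7, 29.4 and 49.1 CPM in control and 32.3, 24.3 and 14.7 CPM in Ybx1-KO libraries.

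**Figure D2:**
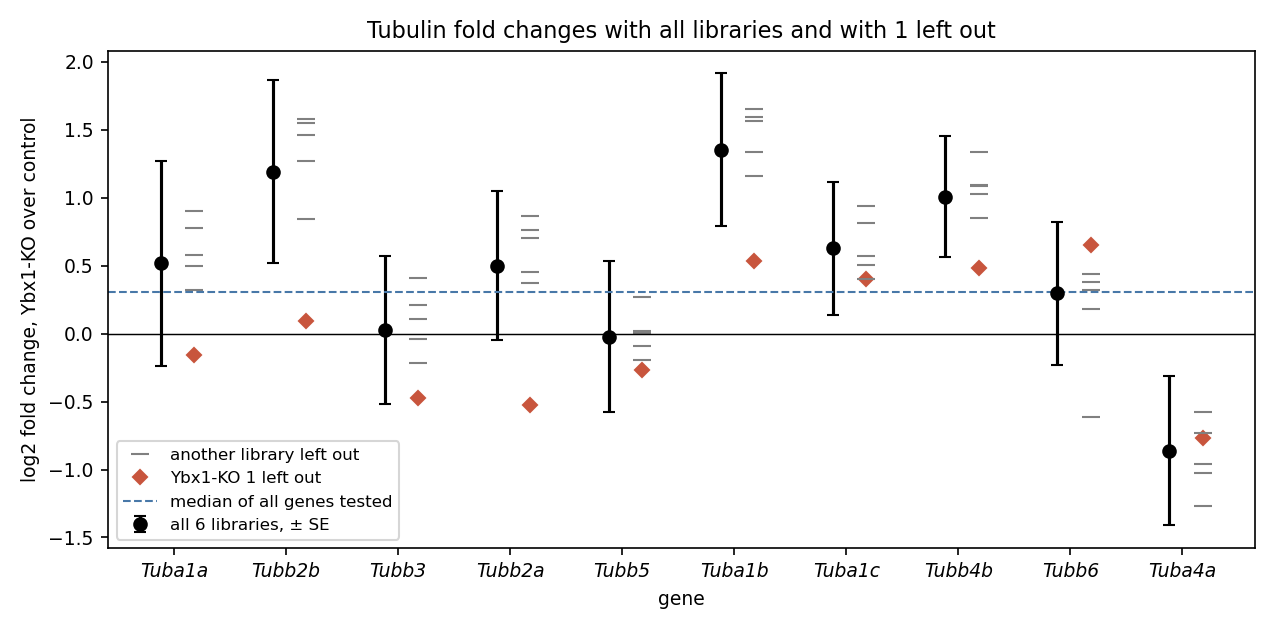
Log2 fold change (Ybx1-KO over control) of each tubulin gene from edgeR's quasi-likelihood fit to all 6 libraries (black points, bars are ± 1 standard error), beside the value with Ybx1-KO 1 left out (red diamonds) and with each other library left out (grey dashes). The dashed line is the median of all genes tested, 0.31. Tubb2b drops from 1.19 to 0.094 without Ybx1-KO 1, while Tuba1b (0.54) and Tubb4b (0.48) stay above that line. The median of all genes tested was 0.38 in the fit without Ybx1-KO 1.

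The tubulin total varied widely among the Ybx1-KO libraries. The 10 genes together made up 0.705, 0.855 and 1.12% of the counts on genes in the control libraries and 2.45, 0.869 and 0.970% in the Ybx1-KO libraries. In CPM, the 4 neuronal isotypes summed to 4867, 7017 and 9418 in control and to 18597, 8569.9 and 4602 in Ybx1-KO libraries. The 5 dividing-cell isotypes summed to 2059.5, 2383 and 2673 CPM in control and to 4623, 3256 and 1833 CPM in Ybx1-KO. With TMM scaling Ybx1-KO 1 was the highest library in both sums and Ybx1-KO 3, which had the largest TMM factor (1.51), the lowest. At 9 of the 10 genes, all except Tuba4a, the ratio of highest to lowest library was larger in Ybx1-KO than in control.

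A share within a library does not depend on how libraries are scaled to each other, so the make-up of the tubulin pool was compared next. Of the alpha tubulin counts per kilobase, Tuba1a held 87.96, 88.96 and 89.2% in the control libraries and 85.1, 85.1 and 80.7% in the Ybx1-KO libraries. Each Ybx1-KO value was thus under every control value. Beside this, 17.2% of all pairs of tested genes with a count in every library had ratios that did not overlap between the groups. The means were 88.7 ± 0.646% and 83.6 ± 2.59% (SD, n = 3), a difference of -5.05 percentage points, larger than either SD. The counting error was far smaller: on raw counts the Wilson 95% interval ran from 83.7 to 84.1% in Ybx1-KO 1, where Tuba1a held 116990 of 139406 alpha tubulin counts, and from 78.5 to 79.4% in Ybx1-KO 3, with 23728 of 30067. No p is given for shares, since they were set up for these genes with earlier results known.

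Tuba1b held a higher share in Ybx1-KO NPCs. Its share of alpha tubulin was 6.13, 6.25 and 6.07% in the control libraries and 11.1, 7.50 and 13.3% in the Ybx1-KO libraries, again without overlap. Tuba1c held 5.80, 4.72 and 4.67% in control and 3.71, 7.30 and 6.02% in Ybx1-KO, with overlap. Tuba4a held 0.108, 0.0683 and 0.0900% in control and 0.0149, 0.0522 and 0.0563% in Ybx1-KO libraries, all lower. Shares of the same pool depend on each other, and those of Tuba1a and Tuba1b rest largely on the same counts.

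The ratio of Tuba1b to Tuba1a counts per kilobase varied little in control NPCs, at 0.0697, 0.0703 and 0.0681, although the level of each gene itself differed by 1.81-fold (Tuba1b) and 1.85-fold (Tuba1a) among these libraries. In Ybx1-KO NPCs the ratio was 0.131, 0.0881 and 0.164. It uses the same counts as the Tuba1a and Tuba1b shares and is not a separate result. The means were 0.0693 ± 0.00113 and 0.128 ± 0.0383 (SD, n = 3). Ybx1-KO 3, the library that stood apart above, had the highest ratio, and both genes were much lower there than in Ybx1-KO 1. Ybx1-KO 2 was the closest to control.

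Since many windows of these 2 genes are shared, the share was also computed per window found in no other gene, an alternative chosen after the data had been seen. Tuba1a then held 83.1, 84.1 and 84.5% in control and 78.0, 79.4 and 72.5% in Ybx1-KO libraries, still without overlap. Each gene's counts were divided by the same number in every library. This alternative therefore cannot show or remove a difference between libraries in the pairs that align to more than 1 place. The share of tallied read pairs that aligned to more than 1 place was 20.1 to 29.0% in control libraries and 32.2, 35.6 and 21.5% in Ybx1-KO libraries. Ybx1-KO 3, whose value lay within the control range, had the lowest Tuba1a share. The part of such pairs in the Tuba1a share was not tested. Gm17383, a gene model that shares windows with both, had 1.37, 0.922 and 2.45 CPM in control and 37.1, 1.53 and 3.36 CPM in Ybx1-KO libraries, high in Ybx1-KO 1 alone. Its part in the result was not tested.

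**Figure D3:**
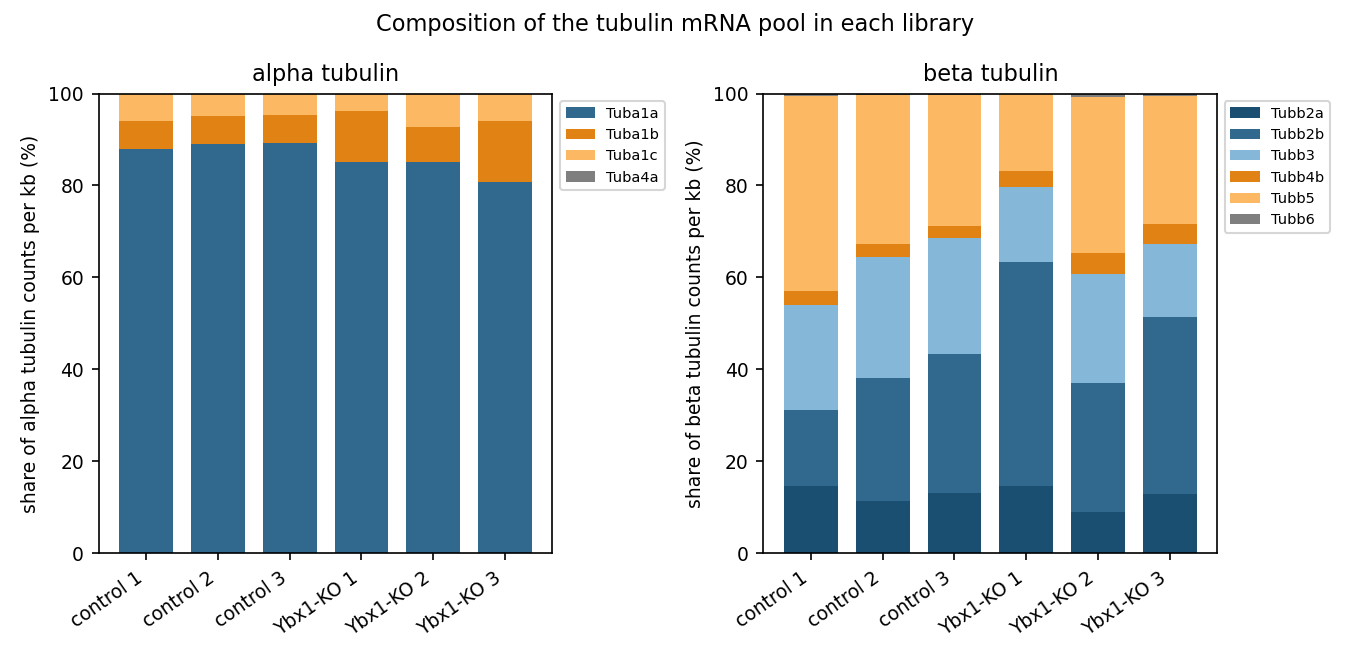
Share of each isotype in the alpha (left) and beta (right) tubulin counts per kilobase of exon, in percent, for each of the 6 libraries; blue colours are neuronal isotypes, orange colours isotypes of dividing cells, grey the rarest gene. On the left, the Tuba1a share is 88.0 to 89.2% in control and 80.7 to 85.1% in Ybx1-KO libraries, and on the right the neuronal share runs from 54.1 to 79.6% with the genotypes mixed.

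The beta tubulin pool was split more evenly, and the neuronal share did not separate the groups. Tubb2a, Tubb2b and Tubb3 together held 54.1, 64.5 and 68.7% of beta tubulin counts per kilobase in control and 79.6, 60.8 and 67.3% in Ybx1-KO libraries. The means were 62.4 ± 7.49% and 69.2 ± 9.54% (SD, n = 3), so the difference of 6.81 percentage points was smaller than the spread within either group. Without Ybx1-KO 1 it was 1.63 points.

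Within the beta pool, the share of 1 of the 6 isotypes did not overlap between the groups. Among all pairs of tested genes, 17.2% had ratios within a library that did not overlap. Tubb4b held 2.99, 2.87 and 2.49% in control and 3.52, 4.48 and 4.35% in Ybx1-KO libraries, without overlap. Tubb3 held 23.0, 26.4 and 25.3% in control and 16.1, 23.7 and 15.9% in Ybx1-KO, with Ybx1-KO 2 just above control 1. Tubb2b held 16.5, 26.7 and 30.2% in control and 48.7, 28.1 and 38.5%, and Tubb5 42.3, 32.4 and 28.5% in control and 16.8, 33.9 and 27.8%, both with overlap.

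Of the 21 pairs that can be formed within the alpha and within the beta genes, 7 had ratios that did not overlap between the genotypes, beside 17.2% of all 109808790 pairs of tested genes with a count in every library. They are not independent of each other: 3 involve Tuba4a (its ratios to Tuba1a, Tuba1b and Tuba1c) and 2 involve Tubb4b, and the remaining pairs are Tuba1a with Tuba1b and Tubb2a with Tubb2b. Per kilobase, Tubb4b stood to Tubb5 at 0.0707, 0.0886 and 0.0875 in control and at 0.209, 0.132 and 0.157 in Ybx1-KO libraries. Tubb3 stood to Tubb4b at 7.69, 9.18 and 10.1 in control and at 4.58, 5.29 and 3.65 in Ybx1-KO libraries. The mean of this ratio was 9.01 ± 1.24 in control and 4.51 ± 0.822 in Ybx1-KO NPCs (SD, n = 3).

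Tubb2a stood to Tubb2b at 0.887, 0.425 and 0.437 in control and at 0.303, 0.318 and 0.336 in Ybx1-KO libraries. The Ybx1-KO values lay close together, with a mean of 0.319 ± 0.0165 (SD, n = 3), and control 1 was far above the remaining pair of controls. Tubb2b stood to Tubb3 at 0.718, 1.01 and 1.19 in control and at 3.01, 1.19 and 2.42 in Ybx1-KO libraries, where control 3 and Ybx1-KO 2 touched.

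**Figure D4:**
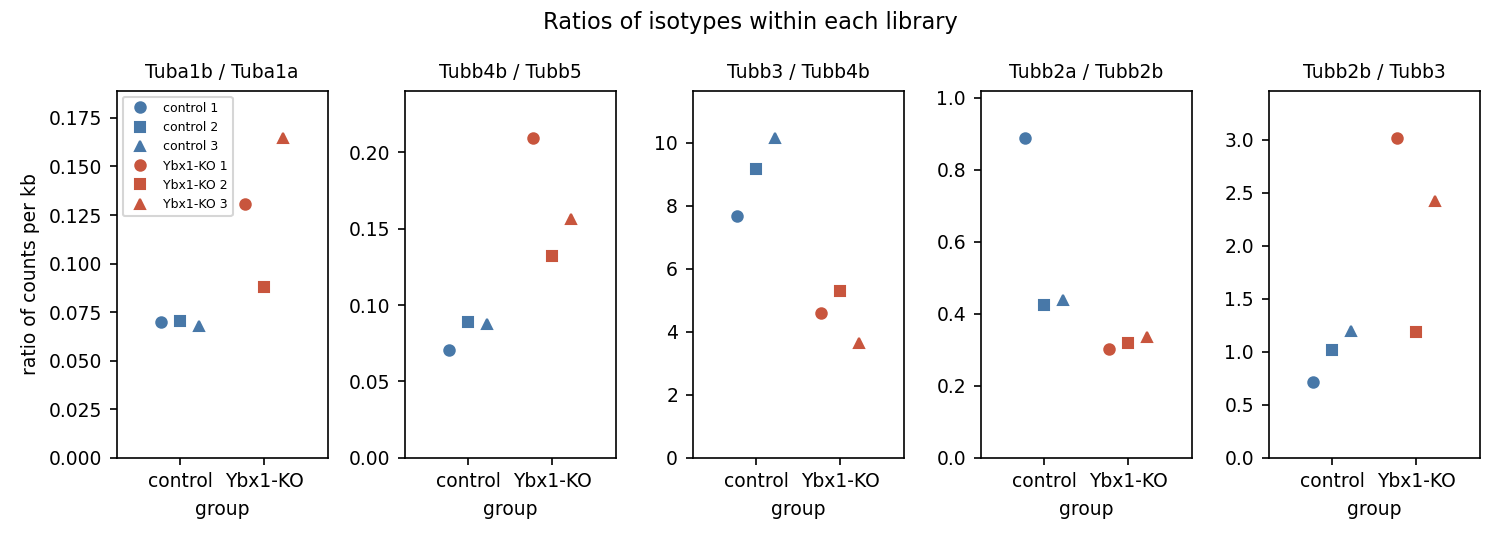
Ratios of counts per kilobase between pairs of tubulin genes within each library (vertical axes start at 0 and differ between panels), control in blue and Ybx1-KO in red, with 1 symbol per library. The 3 control values of Tuba1b to Tuba1a lie between 0.0681 and 0.0703 and the Ybx1-KO values between 0.0881 and 0.164, while Tubb2b to Tubb3 overlaps at 1.19.

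Tubulin must be folded before it can be used, by the prefoldin and CCT chaperonin complexes and then by the tubulin cofactors. Of 20 such genes, all tested, 1 was higher at an unadjusted p below 0.05 and 0 lower, beside 6.96% and 4.26% of all genes, and 0 passed adjustment. The median log2 fold change was -0.19. The gene that was higher is Pfdn2, a prefoldin subunit, with 20.2, 18.6 and 25.2 CPM in control and 93.2, 27.0 and 30.8 CPM in Ybx1-KO libraries (log2 fold change 1.24, SE 0.464, adjusted p = 0.432 by edgeR). With TMM scaling, the Ybx1-KO libraries lay wholly below the controls at 4 folding genes, all 4 of them subunits of the CCT ring, beside 8.16% of all genes. At 1 (Pfdn2) they lay wholly above, beside 4.99%. The remaining CCT subunits on the list overlapped. Of the 4 lower genes, the 2 with the smallest p were Tcp1 (333, 408 and 435 against 179, 297 and 261 CPM) and Cct5 (199, 237 and 289 against 189, 161 and 126 CPM), with log2 fold changes of -0.67 and -0.61 (adjusted p = 0.490 and 0.507 by edgeR). Not all of these separations held when scaled by total count: Tcp1 and Pfdn2 then overlapped, while Cct5 stayed lower in every Ybx1-KO library. The cofactor Tbce, which helps release alpha tubulin, had a log2 fold change of -0.70 and overlapped.

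Of 21 genes that modify tubulin or destabilise its mRNA in autoregulation, 18 were tested. At an unadjusted p below 0.05, 0 were higher and 0 lower, beside 6.96% and 4.26% of all genes. Their median log2 fold change was 0.0098. The smallest p was that of Ttl, the ligase that puts the last tyrosine back on alpha tubulin. With TMM scaling Ttl stood at 25.3, 31.5 and 38.5 CPM in control and at 8.93, 24.4 and 18.05 CPM in Ybx1-KO libraries, all lower (log2 fold change -0.89, SE 0.426, unadjusted p = 0.0527, adjusted p = 0.446 by edgeR). Scaled by total count, Ybx1-KO 3 lay above control 1 and the groups overlapped. Agbl4, a carboxypeptidase that shortens glutamate side chains, had 1.57 to 3.02 CPM in control and 0.112, 0.920 and 21.8 CPM in Ybx1-KO libraries, high in Ybx1-KO 3 alone. The deacetylase Sirt2 and the polyglutamylase subunit Ttll1 had log2 fold changes of -0.57 and -0.49, each with overlap.

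Gamma-tubulin and its partners start new microtubules. Of 12 genes of this kind, all tested, 0 were higher and 0 lower at an unadjusted p below 0.05, beside 6.96% and 4.26% of all genes. The median log2 fold change was -0.16. Tubg2, the gamma-tubulin of mature brain, had the smallest p, with 5.34, 6.45 and 12.4 CPM in control and 1.23, 2.25 and 6.58 CPM in Ybx1-KO libraries (log2 fold change -1.27, SE 0.759, adjusted p = 0.467 by edgeR). Of the ring complex genes, Tubgcp6 had log2 fold change 0.39 and, with TMM scaling, all Ybx1-KO libraries above the controls (25.4, 26.4 and 17.5 against 28.7, 34.9 and 26.9 CPM). It was the only gene of the 12 whose groups did not overlap, beside 4.99% of all genes above and 8.16% below. Scaled by total count, Ybx1-KO 2 lay below control 1 and the groups overlapped. Tubgcp5 (-0.55) overlapped. Mzt1, a small subunit of the same complex, had a log2 fold change of -0.32. Of 8 other alpha and beta tubulin genes and pseudogenes, 2 were tested. Tubb4a, the beta tubulin of oligodendrocytes and mature neurons, had 112, 339 and 259 CPM in control and 312, 490 and 106 CPM in Ybx1-KO libraries, with overlap. The pseudogene Tubb4b-ps2 entered the test through Ybx1-KO 3 alone, at 6.44 CPM against at most 0.409 elsewhere.

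Markers of cell state were set beside the isotypes, and their counts at an unadjusted p below 0.05 stand beside 6.96% higher and 4.26% lower among all genes tested. Of 15 neuron markers, 1 was higher and 3 lower at an unadjusted p below 0.05, with a median log2 fold change of -0.44. The neurofilament gene Nefm was the higher one (log2 fold change 1.51), and the lower ones included the synaptic gene Snap25 (-1.28) and the splicing regulator Celf4 (-0.98), both without overlap between the groups. Summed over the list, CPM was 3562, 6125 and 3940 in control and 4421, 4163 and 1998 in Ybx1-KO libraries. Ybx1-KO 3 was the lowest for this list as for the neuronal tubulins, whereas Ybx1-KO 1 was not the highest.

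Of 12 proliferation markers, 4 were higher (beside 6.96% of all genes) and 0 lower (beside 4.26%) at that threshold, with a median of 0.36, near that of all genes. These were Aurka, a mitotic kinase (log2 fold change 1.35), the replication helicase genes Mcm2 (1.02) and Mcm5 (0.94), and the mitotic cyclin Ccnb2 (0.98). Their list summed to 799, 1204 and 841 CPM in control and to 981, 1417 and 1068 CPM in Ybx1-KO libraries, with overlap. Of 10 progenitor markers, 3 were higher, namely Nes (1.44), Hes1 (1.18) and Hes5 (1.05), and 1 was lower, the glial glutamate transporter gene Slc1a3 (-1.78). Sox2 had a log2 fold change of -0.0054. Among the 5 intermediate progenitor markers, Neurog1 was higher (1.81) and Eomes lower (-2.70), though control 2 (0.461 CPM, against 52.5 and 65.9 CPM in the other controls) lay below the Ybx1-KO libraries (5.69 to 6.34 CPM), with Neurog2 at -0.82 and Btg2 at 0.49. Of all these genes 0 passed adjustment, and the smallest adjusted p was 0.237, for Slc1a3 (edgeR's quasi-likelihood test).

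Markers of other cells that the sorted fraction could hold were counted as well. Of 6 mesenchyme markers, 5 were lower at an unadjusted p below 0.05 (beside 4.26% of all genes, and 6.96% higher), among them Dcn (-3.43), Lum (-2.74), Col3a1 (-2.36) and Col1a1 (-2.00), and the list summed to 863, 128 and 212 CPM in control and to 106, 118 and 75.3 CPM in Ybx1-KO libraries. Neural crest markers were higher at 3 of 5 genes (Foxd3 3.24, Sox10 1.52 and Erbb3 1.19), summing to 30.3, 46.4 and 49.9 CPM against 73.8, 162 and 54.4 CPM. Erythroid markers were lower at 3 of 8 genes (Hbb-bs -4.67, Hbb-bt -3.25 and Alas2 -1.61, with Hba-a2 at -1.09 above that p), and their sums of 514 to 1199 and 191 to 1163 CPM overlapped. Of 4 endothelial genes tested 0 and of 3 microglial genes 1 passed an unadjusted p of 0.05. The 2 lists summed to 20.6 to 40.9 and 8.94 to 31.5 CPM in control and to 11.3 to 52.6 and 3.35 to 21.97 CPM in Ybx1-KO libraries. The part of these cell types in the tubulin values was not tested.

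**Figure D5:**
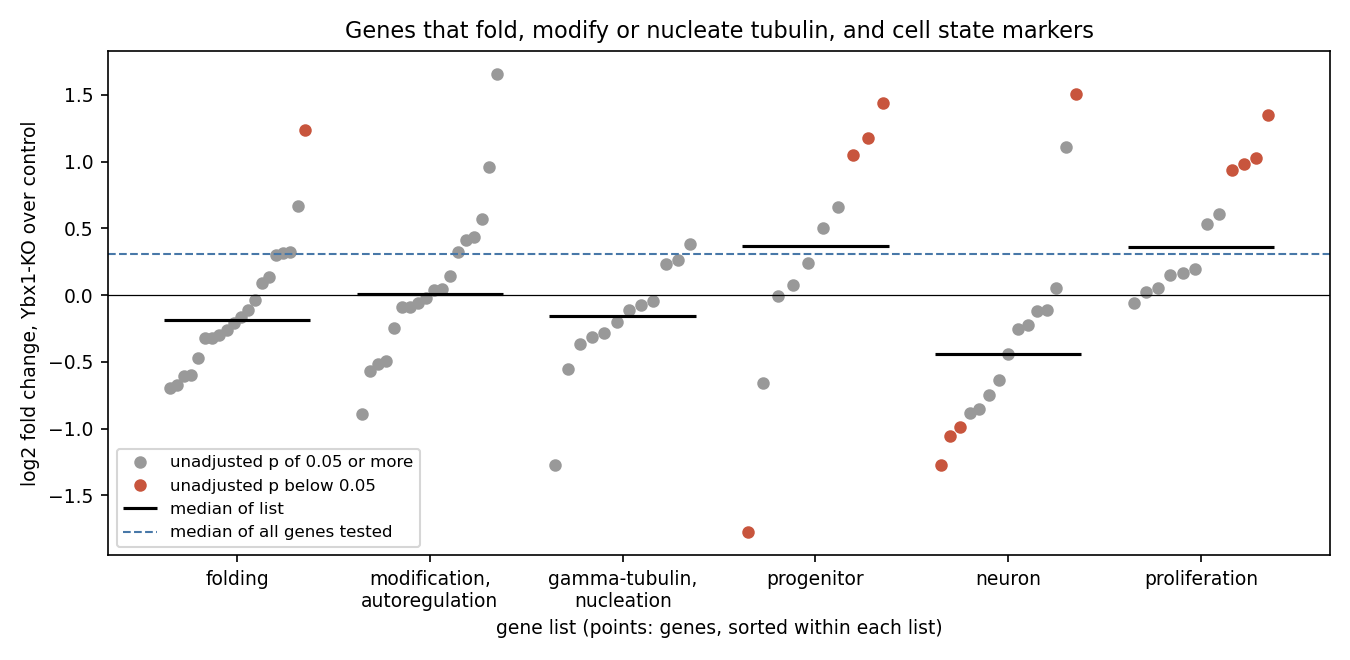
Log2 fold change (Ybx1-KO over control) of every tested gene in 6 lists, sorted within each list; red points passed an unadjusted p of 0.05 (edgeR), black bars are list medians and the dashed line is the median of all genes tested, 0.31. The folding, modification and nucleation lists hold 1 red point, Pfdn2, while the neuron list has its median at -0.44 and the proliferation list at 0.36.

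Genes whose pattern over the 6 libraries was most like that of the isotypes were sought among 9539 other tested genes with a mean of at least 10 CPM, by the root mean square distance between centred log2 CPM profiles. The mean profile of the 4 neuronal isotypes was closest to Syt13 (distance 0.140), Syn1 (0.147), Ptpn1 (0.163), Map7d1 (0.165) and Nkiras2 (0.166). Syt13 and Syn1 encode proteins of vesicle traffic and synaptic vesicles, and Map7d1 a microtubule-associated protein. Tuba1a itself stood at 0.128 from this profile, Tubb2a at 0.234, Tubb3 at 0.337 and Tubb2b at 0.415, so that 3 of the 4 were farther from their own mean than these 5 genes were. The mean profile of the 5 dividing-cell isotypes was closest to BC024978 (0.0740), Fancf (0.0765), Ankrd40 (0.0899), Rnf126 (0.0966) and Zfp212 (0.0970), with Tuba1c at 0.125 and Tubb6 at 0.792 from it. The points share depth and library quality, so these distances are a description over 6 libraries.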

How the data were processed

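RNA of Sox2-sorted NPCs was made into stranded total RNA libraries and sequenced as 100-base read pairs. The authors mapped the pairs, counted them on genes with HTSeq 0.6.1p1 and deposited raw counts per gene symbol, with no normalization. The submitters' processing notes also name CASAVA, and the builds mm10 and GRCm38.p5. The aligner and the strand setting are not given in the sources used here. The titles of 2 control libraries share a number, as do those of 2 Ybx1-KO libraries; what it marks is not stated.

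Here, exon lengths and positions came from GENCODE M21 (GRCm38), where 47624 symbols matched by name and 359 by an older name. Genes whose FPKM averaged over 1 in control or in Ybx1-KO were tested with edgeR 4.0.16 in R 4.3.3 (TMM, quasi-likelihood, Benjamini-Hochberg over all genes tested). The common coefficient of biological variation was 0.800. No library was a copy of another (smallest chi-square per degree of freedom between libraries 58.9). Permutation tests used scipy 1.17.1. At these depths, 3 counts were 0.126 to 0.632 CPM by total count, without TMM factors. Intervals and floors cover counting error only.

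Alternatives were limma-voom (limma 3.58.1), DESeq2 1.42.0, RLE and total count scaling, 2 other filters, and leaving out each library; shares were recomputed with other lengths and members. The fit was tested on simulated data. The members and gene lists were chosen with earlier results of these data known. All 10 tubulin genes are named, and from each other list at most 4 genes with the smallest unadjusted p, besides Ybx1, Sox2, overlapping genes and the 5 genes of nearest pattern. Some genes and sequences are not reported here.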

Additional observations from a re-analysis of the deposited data

How the results depend on the processing

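Over 12 alternatives, 105 tubulin log2 fold changes kept their direction, 15 did not, and none passed an adjusted p of 0.05. Tuba1b, Tuba1c, Tubb2b, Tubb4b and Tuba4a kept it throughout. Tubb3 was -0.12 by limma-voom and -0.033 without a filter. Tubb5 was 0.042 by DESeq2 and 0.042 by RLE scaling, 0.079 by total count scaling and 0.061 with CPM above 1 in 3 libraries. With 1 library left out, values ran from -0.15 to 0.90 for Tuba1a, -0.53 to 0.87 for Tubb2a, -0.47 to 0.41 for Tubb3, -0.27 to 0.27 for Tubb5 and -0.61 to 0.65 for Tubb6. The median of the neuronal isotypes ran from -0.31 (without Ybx1-KO 1) to 0.88 and that of the dividing-cell isotypes from 0.40 to 0.94. Called genes numbered 118 higher and 96 lower by DESeq2, 113 and 80 without a filter, and from 0 to 532 and 0 to 247 with 1 library left out (532 and 165 without Ybx1-KO 1, 478 and 247 without Ybx1-KO 2, 29 and 44 without control 2). With 1 library left out, the median of all genes tested ran from 0.013 (without Ybx1-KO 3) to 0.47, and it was 0.70 without a filter. The causes of these moves were not tested. The difference in Tuba1a share ran from -5.80 to -3.55 percentage points with 1 library left out and was -7.26 per unshared 100-base window. That in neuronal beta share ran from 1.63 to 11.0 points. No paired analysis was possible because the groups share no replicate number in their titles. The depth limits Tuba4a and Tubb6 most, with as few as 34 and 53 counts.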
